A study of Mus musculus with 6 samples.

Results

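The neuregulin genes Nrg1, Nrg2, Nrg3 and Nrg4 and the receptor gene Erbb4 were chosen by name, as a ligand family and its shared receptor. Earlier results of these data were known when they were chosen. They are 5 of 21755 protein-coding genes annotated on chromosomes 1 to 19 and X. DNA break ends in their gene bodies were counted in 6 libraries of sorted mouse forebrain neurons. The assay, BLISS, joins adaptors to the ends of double-strand breaks in fixed nuclei, and the 5′ end of each read was taken as 1 break end. All 6 libraries carry the same genotype label, CK-p25, and the same treatment label, 2 weeks of induction by taking doxycycline out of the diet, and their titles put 2 libraries in each of the groups Con, Step1 and Step2.

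In CK-p25 mice the CaMKIIα promoter drives a doxycycline-repressed transactivator, so that p25, an activator of the kinase Cdk5, is made mainly in excitatory forebrain neurons once the drug is gone. What sets Con, Step1 and Step2 apart is not stated in the labels, which also give no age and do not say whether replicates are separate animals, so the p-values measure no more than how these libraries spread, and that spread may be technical. No RNA was read, and the neuron label was therefore not checked against marker genes. A value is a share of its library's reads and says where ends lay, not how many breaks a cell had.

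Neuregulins are ligands with an EGF-like domain, most of them made as membrane-bound precursors that proteases such as BACE1 and ADAM family members cut. They bind ErbB3 and ErbB4, receptor tyrosine kinases that signal as dimers, often with ErbB2, through PI3K-AKT and MAPK pathways. In the forebrain ErbB4 is found mostly in inhibitory interneurons, while Nrg1 and Nrg3 are made largely by excitatory neurons and act in the wiring of synapses onto interneurons; Nrg1, Nrg3 and Erbb4 are among the very long genes of the mouse genome.

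All 5 genes are transcribed from the minus strand of mm10. Nrg3 lies at chr14:38368952-39473088 and spans 1104.14 kb, which makes it the 43rd longest protein-coding gene. Erbb4 lies at chr1:68032186-69108059 (1075.87 kb, rank 49) and Nrg1 at chr8:31814551-32884029 (1069.48 kb, rank 50). Nrg4 lies at chr9:55220222-55326844 (106.623 kb), and Nrg2, of 179.729 kb, is placed with its values below. Other annotated genes overlap parts of all 5: 90.8% of the bases of Nrg3 are free of them, the lowest share, because of the antisense RNA genes Nrg3os, Gm20641 and Gm20642 inside it, and 4212 bases of Nrg4 are shared with the protein-coding gene Fbxo22.

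Sequences of 2 kinds are shown because the values below refer to them. The first are the 250 bases before the start of Nrg3 and of Erbb4 (RefSeq, GRCm38.p6, the build of mm10; 3 of the 5 genes, Erbb4, Nrg3 and Nrg4, were matched in that table), printed on the gene's strand with each base that carried a read's 5′ end in capitals. The Nrg3 stretch is chr14:39473089-39473338 and the Erbb4 stretch chr1:69108060-69108309, both minus strand.
Nrg3: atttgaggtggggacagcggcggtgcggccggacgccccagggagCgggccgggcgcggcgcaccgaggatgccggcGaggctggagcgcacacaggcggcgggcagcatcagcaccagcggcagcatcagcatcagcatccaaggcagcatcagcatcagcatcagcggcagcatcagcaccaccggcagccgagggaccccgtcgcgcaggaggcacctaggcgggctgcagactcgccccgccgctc
Erbb4: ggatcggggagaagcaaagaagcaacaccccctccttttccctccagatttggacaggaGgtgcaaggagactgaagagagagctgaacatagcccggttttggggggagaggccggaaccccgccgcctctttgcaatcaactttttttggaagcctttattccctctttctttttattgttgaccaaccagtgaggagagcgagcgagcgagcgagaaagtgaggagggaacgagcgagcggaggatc

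The second are the surroundings of the single position with the most reads in Erbb4, Nrg4 and Nrg3, all in introns, read on the strand of the reads there, with the first 6 bases of those reads in capitals. The Erbb4 stretch is chr1:68261943-68261983 (plus strand), the Nrg4 stretch chr9:55278617-55278657 (minus strand) and the Nrg3 stretch chr14:39290707-39290747 (minus strand).
Erbb4: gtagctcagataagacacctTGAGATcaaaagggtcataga
Nrg4: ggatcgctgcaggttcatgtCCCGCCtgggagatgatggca
Nrg3: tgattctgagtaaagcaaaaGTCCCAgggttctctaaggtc

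Depth ran from 1480461 to 2403238 reads per library, and the Step2 libraries were the shallowest (1526487 and 1480461 reads). A distinct position carried 1.29 and 1.42 reads on average in the Con libraries, against 1.19 and 1.21 in those of Step1 and 1.24 and 1.26 in those of Step2, so Con held the most repeated positions. Depth and repeated positions therefore moved with the groups; the part of depth in the differences below was not tested, and the differences of the gene bodies are also given with 1 read per position and strand. Values are in CPM, the reads of a gene scaled to those of its library outside 26 windows of 10 kb with piled-up reads, and 95% counting intervals of single libraries are exact Poisson ones that cover counting error only.

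Among the 4 ligand genes and the receptor, Nrg3 alone was called in any of the 3 comparisons, where called means an adjusted p under 0.05 in the limma fit over all 13811 genes tested. Its break ends fell by 0.33 on the log2 scale from Con to Step2 and lay between the Con and Step2 levels in Step1. Nrg1 lay below Con in both Step1 and Step2 by less than Nrg3 did in Step2, and neither difference was called. The Erbb4 libraries overlapped across all 3 groups. All 5 genes passed the filter on low counts.

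Nrg3, a neuregulin made in the brain that binds ErbB4, held 1075 and 1195 reads in the Con libraries, 1021 and 920 in Step1, and 621 and 564 in Step2. Scaled to library size these were 487.8 and 547.3 CPM in Con, 447.7 and 473.8 CPM in Step1, and 425.7 and 397.8 CPM in Step2. No library of one group overlapped another group: Con was highest, Step1 intermediate and Step2 lowest. The counting interval of the lower Con library, 459 to 518 CPM, overlapped that of the higher Step2 library, 393 to 461 CPM, at its edge. The log2 fold change was -0.33 ± 0.06 (SE) for Step2 against Con (95% interval -0.46 to -0.20, limma voom adjusted p = 0.0133), from 518 ± 42.1 to 412 ± 19.7 CPM (SD, n = 2 libraries). By unadjusted p it was the gene with rank 8 of all those tested. Against Con, Step1 was lower by a log2 fold change of -0.17 ± 0.05 (limma adjusted p = 0.343), and Step2 against Step1 gave -0.16 ± 0.07 (limma adjusted p = 0.999); neither was called. The comparisons of Step1 and of Step2 with Con share the same 2 Con libraries.

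With 1 read per position, Nrg3 had 509 and 526 CPM in Con, 463 and 479 CPM in Step1, and 437 and 407 CPM in Step2. The groups again did not overlap, and the Con libraries lay closer together than with all reads. The log2 fold change of Step2 against Con was -0.29 ± 0.05 (limma adjusted p = 0.000262, rank 2 by unadjusted p). That of Step1 against Con was -0.14 ± 0.04 (limma adjusted p = 0.234) and that of Step2 against Step1 was -0.15 ± 0.05 (limma adjusted p = 0.980).

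The direction of the Step2 difference in Nrg3 was lower than Con in 22 of 22 alternative settings, and the call was kept in 13. It was lost, among others, with each other scaling (median of ratios, -0.28 with limma adjusted p = 0.0697; trimmed mean of M values, -0.29 with limma adjusted p = 0.0649), without Con replicate 2 (-0.24, limma adjusted p = 0.297), without Step2 replicate 1 (-0.38, limma adjusted p = 0.471) and without Step2 replicate 2 (-0.28, limma adjusted p = 0.666). Without Con replicate 1, Step1 against Con was called as well (-0.25, limma adjusted p = 0.00753). Every library held reads of 2 sequencing runs, and the difference between Step2 and Con was -0.33 in the first run (limma adjusted p = 0.498) and -0.32 in the second (limma adjusted p = 0.0502). Nrg3 had 496 and 601 CPM in Con and 443 and 432 CPM in Step2 in the first run, and 481 and 497 against 413 and 364 in the second, so Con lay above Step2 in both.

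Nrg1, the best known neuregulin, with many isoforms from several starts, had 449.2 and 474.0 CPM in Con, 425.3 and 404.8 CPM in Step1, and 407.9 and 424.6 CPM in Step2. Both Step1 and Step2 libraries lay below both Con libraries, and Step1 and Step2 overlapped. The log2 fold change was -0.15 ± 0.05 for Step1 against Con (limma adjusted p = 0.505) and -0.15 ± 0.06 for Step2 against Con (limma adjusted p = 0.553), and neither was called. Step2 against Step1 had a log2 fold change of 0.00 (95% interval -0.13 to 0.13). With 1 read per position the values were -0.13 ± 0.05 for both comparisons with Con and 0.00 for Step2 against Step1.

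Nrg2, a ligand of ErbB3 and ErbB4 at chr18:36017652-36197380, had 78.05 and 83.35 CPM in Con, 71.9 and 81.4 CPM in Step1, and 61.0 and 62.1 CPM in Step2. Both Step2 libraries lay below the other 4. Its log2 fold change of Step2 against Con was -0.39 ± 0.17, larger than that of Nrg3, but with 89 and 88 reads in the Step2 libraries its error was larger too (limma adjusted p = 0.586). Step2 against Step1 had a log2 fold change of -0.30 ± 0.17 and Step1 against Con one of -0.08 ± 0.14. The difference between Step2 and Con with 1 read per position was -0.24 ± 0.15 (limma adjusted p = 0.706), that between Step2 and Step1 -0.19 ± 0.14 and that between Step1 and Con -0.05 ± 0.13. The sequencing runs differed: in the first, Nrg2 had 76.8 and 75.3 CPM in Con, then 53.5 and 77.8 in Step1 and 76.7 and 53.9 in Step2, so the groups overlapped, and in the second 79.00 and 90.98 in Con, then 84.2 and 84.4 in Step1 and 49.2 and 70.2 in Step2. Step2 against Con gave -0.25 ± 0.23 in the first run and -0.53 ± 0.20 in the second (limma adjusted p = 0.865 and 0.527), and Step2 against Step1 gave -0.01 ± 0.25 and -0.53 ± 0.20 (limma adjusted p = 0.999 and 1.000). Nrg2 was called in no setting.

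Nrg4, known as a ligand of ErbB4 released by fat tissue, had 44.9 and 46.7 CPM in Con, 37.7 and 46.9 CPM in Step1, and 43.2 and 50.8 CPM in Step2. With all reads the groups overlapped in every comparison. It had 63 to 102 reads per library, and the 95% interval of its log2 fold change of Step2 against Con ran from -0.37 to 0.44. That difference was 0.03 ± 0.20 for the whole gene and -0.09 for the part that no other annotated gene overlaps. With 1 read per position Nrg4 had 44.5 and 42.1 CPM in Con, then 39.2 and 45.98 in Step1 and 45.8 and 53.2 in Step2, with both Step2 libraries above both Con libraries. The log2 fold change of Step2 against Con was then 0.19 ± 0.18 (limma adjusted p = 0.833), with -0.04 ± 0.17 for Step1 against Con and 0.23 ± 0.18 for Step2 against Step1. None was called. The sign turned in 2 of 22 alternative settings in each comparison with Con, so no direction against Con is given for Nrg4. Step2 against Step1 stayed positive in all 22, from 0.00015 to 0.31, but the libraries of these 2 groups overlapped.

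Erbb4, the receptor, had 478.3 and 452.5 CPM in Con, 474.8 and 434.7 CPM in Step1, and 448.3 and 474.0 CPM in Step2. The groups overlapped in every comparison. The log2 fold change was -0.03 ± 0.05 for Step1 against Con (95% interval -0.13 to 0.08, limma adjusted p = 0.930) and -0.01 ± 0.06 for Step2 against Con (95% interval -0.13 to 0.11, limma adjusted p = 0.971). Both were -0.04 with 1 read per position (SE 0.04 and 0.05). The sign of the Step2 difference turned in 6 of 22 alternatives, whose values ran from -0.05 to 0.03, and that of Step1 in 5, so no direction is given for Erbb4 either.

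**Figure D1:**
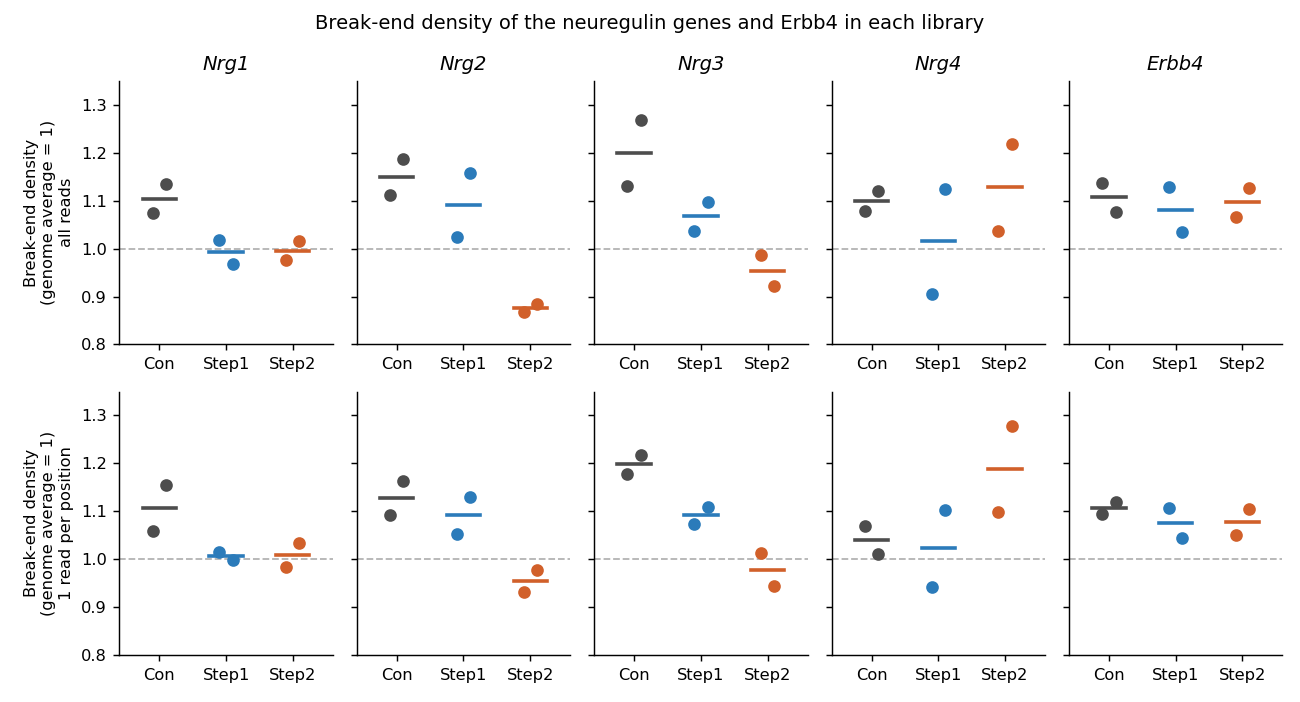
Reads per base of each gene body, divided by the average over chromosomes 1 to 19 and X, with all reads (top row) and 1 read per position (bottom row). Each point is 1 library, bars are means of 2 libraries, the dashed line marks the genome average and the vertical axis starts at 0.8. Nrg3 stands at 1.13 and 1.27 in Con and at 0.987 and 0.922 in Step2 with all reads, and the Erbb4 points overlap between groups.

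Counts of called genes were low throughout. In Step1 against Con 17 of 13811 genes were called (0.123%), of which none of the 5; in Step2 against Con 13 (0.0941%), of which 1 of the 5, Nrg3; and in Step2 against Step1 6 (0.0434%), of which none of the 5. At an unadjusted p under 0.05 in limma, 2 of the 5 passed in the first comparison (Nrg1 and Nrg3), 3 in the second (Nrg1, Nrg2 and Nrg3) and 1 in the third (Nrg3). So did 978, 1073 and 472 of all 13811 genes (7.08%, 7.77% and 3.42%). Among the 59 tested genes over 1000 kb, which include Nrg1, Nrg3 and Erbb4, 27, 26 and 6 passed. In the first and the third comparison limma-trend called none of the 5. With 1 read per position 12715 genes were tested, of which 0.118%, 0.126% and 0.0315% were called in the same order, and among the 5 genes again Nrg3 alone, in Step2 against Con. At an unadjusted p under 0.05 in limma 8.23%, 7.97% and 4.89% of them passed, and 31, 30 and 8 of the 59 genes over 1000 kb. Of the 5 genes Nrg1 and Nrg3 did in both comparisons with Con and Nrg3 in the third, while Nrg2 no longer did in Step2 against Con (limma, unadjusted p = 0.108).

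Groups that did not overlap were common among all genes, and the shares among the 5 are read against that. In Step1 against Con, 2 of the 5 genes had both Step1 libraries below both Con libraries (Nrg1 and Nrg3), as had 21.3% of all genes tested. In Step2 against Con 3 of the 5 did (Nrg1, Nrg2 and Nrg3), against 21.7% of all genes. In Step2 against Step1 it was 2 of the 5 (Nrg2 and Nrg3), against 17.9%. The median log2 fold change of all genes was -0.04 in both comparisons with Con and 0.00 in Step2 against Step1. Nrg1, Nrg3 and Erbb4 are among the 59 tested genes over 1000 kb, of which 51 were lower in Step2 than in Con.

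**Figure D2:**
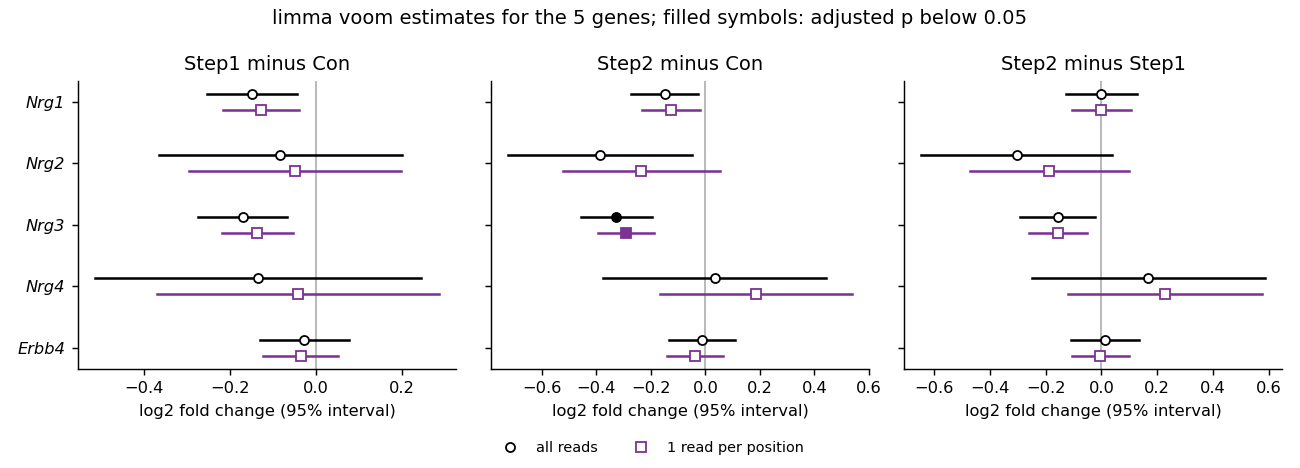
Log2 fold changes of the 5 genes in the 3 comparisons, with 95% intervals from limma voom, for all reads (circles) and 1 read per position (squares). Filled symbols have an adjusted p under 0.05. Nrg3 in Step2 against Con is the only filled pair, and the intervals of Nrg2 and Nrg4 are the widest.

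Among the longest genes Nrg3 had the lowest log2 fold change in Step2 against Con. The 59 tested genes over 1000 kb had a median log2 fold change of -0.08 in each comparison with Con, and 51 of the 59 were lower in Step2. In Step2 against Con, Nrg3 had the lowest value of the 59, Nrg1 rank 16 and Erbb4 rank 48 counted from the lowest. The next lowest gene had -0.29 ± 0.06 (limma adjusted p = 0.0102), and with 1 read per position the next lowest had -0.27 ± 0.05 (limma adjusted p = 0.00105). Each lay closer to Nrg3 than the SE of either gene, so the first rank hardly sets Nrg3 apart. Against Con, the ranks in Step1 were 6 for Nrg3, 12 for Nrg1 and 43 for Erbb4. The ranks of Nrg3, Nrg1 and Erbb4 with 1 read per position were 1, 23 and 44 for Step2 and 11, 14 and 42 for Step1, so the place of Nrg1 moved with the setting. Of the 59 genes, 5 were called lower in Step1 against Con and 2 in Step2 against Con in limma, and 9 and 7 with 1 read per position. Over genes of every length 22.5% had a lower value than Nrg3 in Step2 against Con, most with fewer reads and wider errors. These ranks are a description, with no test.

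**Figure D3:**
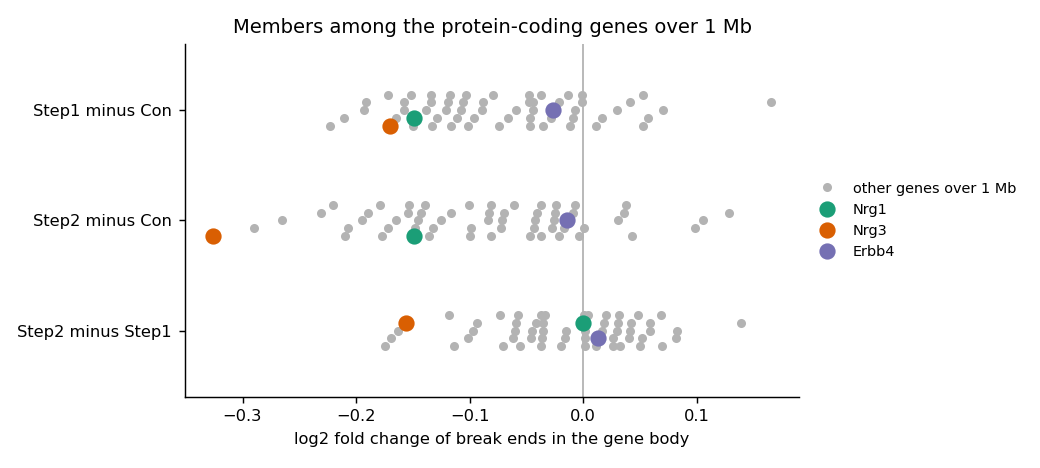
Log2 fold changes of the 59 protein-coding genes over 1000 kb in the 3 comparisons, all reads; each point is 1 gene and the vertical scatter within a row has no meaning. Nrg3 is the leftmost point in Step2 against Con at -0.33, Nrg1 lies at -0.15 and Erbb4 at -0.01.

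Per kb and with all reads, the 5 genes held similar levels in Con and spread out in Step2. In units of the genome average, Con density was 1.20 ± 0.0975 in Nrg3, 1.15 ± 0.0534 in Nrg2, 1.11 ± 0.0433 in Erbb4, 1.10 ± 0.0420 in Nrg1 and 1.10 ± 0.0304 in Nrg4 (SD, n = 2). No neighbours in that order differed by more than the larger SD of the pair. In Step2 the order was Nrg4 at 1.13 ± 0.129, Erbb4 at 1.10 ± 0.0432, Nrg1 at 0.996 ± 0.0283, Nrg3 at 0.954 ± 0.0457 and Nrg2 at 0.876 ± 0.0107. There the libraries of Erbb4 and Nrg1 did not overlap, nor did those of Nrg3 and Nrg2, while the other neighbours overlapped. The ends of the Step2 order, Nrg4 and Nrg2, rest on the fewest reads. Counted with 1 read per position, both Con libraries of Nrg3 (1.18 and 1.22) lay above the Con libraries of the other genes. Means then ran from 1.04 (Nrg4) to 1.20 (Nrg3) in Con and from 0.955 (Nrg2) to 1.19 (Nrg4) in Step2. With all reads, the density of Nrg3 over that of Erbb4 within each library was 0.994 and 1.18 in Con, against 0.919 and 1.06 in Step1 and 0.925 and 0.818 in Step2. Step2 lay below Con in that ratio (exact two-sided permutation p = 0.333, the smallest that the 6 assignments of 2 against 2 libraries can give, so no such test can pass 0.05).

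Each gene was then set against its own neighbourhood, the 500 kb on each side. The flanks of Nrg3 held 443 and 413 CPM in Con, 438 and 429 CPM in Step1, and 427 and 432 CPM in Step2, and so overlapped between groups where the gene body did not. The density of the Nrg3 body over that of its flanks was 0.997 and 1.20 in Con, then 0.927 and 1.00 in Step1 and 0.903 and 0.835 in Step2. Step2 was below Con (0.869 ± 0.0482 against 1.10 ± 0.144, SD, n = 2; exact permutation p = 0.333). For Nrg1 the ratio was 1.01 and 1.16 in Con, with 0.959 and 0.849 in Step1 and 0.889 and 0.940 in Step2. Both other groups lay below Con (exact permutation p = 0.333 each). The flanks of Nrg1 held 416 and 381 CPM in Con, with 415 and 446 CPM in Step1 and 429 and 423 CPM in Step2, so Step2 lay above Con there and below it in the gene body. With flanks of 1000 kb the Nrg1 ratio of Step2 (0.937 and 1.04) overlapped that of Con (1.02 and 1.15; exact permutation p = 0.667), while in Nrg3 Step2 (0.940 and 0.915) stayed below Con (1.02 and 1.26; exact permutation p = 0.333).

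The receptor gene went the other way in this measure. The ratio of Erbb4 was 1.11 and 1.00 in Con, against 1.07 and 0.961 in Step1 and 1.19 and 1.15 in Step2, with Step2 above the other groups (exact permutation p = 0.333). Its body overlapped between groups, while both flank values were lower in Step2, at 351 and 384 CPM against 402 and 420 in Con. For Nrg2 the ratio was 1.05 and 1.07 in Con, then 1.03 and 1.13 in Step1 and 0.838 and 0.905 in Step2, again lowest in Step2. That of Nrg4 overlapped between Con and Step2 (1.10 and 1.24 against 1.04 and 1.32).

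**Figure D4:**
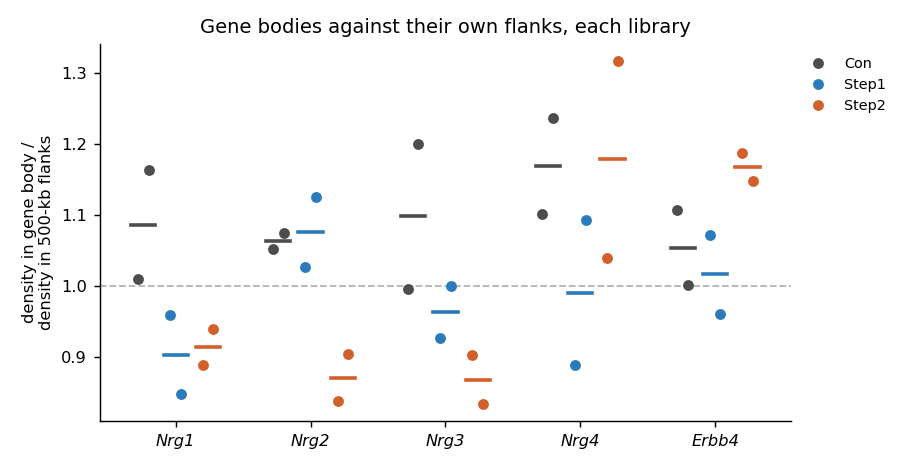
Read density in each gene body divided by that in the 500 kb on each side, all reads. Points are libraries, bars are means of 2 libraries, the dashed line marks equal density and the vertical axis does not start at 0. In Nrg1, Nrg2 and Nrg3 both Step2 points lie below both Con points; in Erbb4 both lie above.

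Within Nrg3 the lower Step2 level was spread over the gene. Of the 10 windows of 100 kb that lie wholly inside it, 10 had a negative log2 fold change in Step2 against Con, with a median of -0.31 and a range from -0.54 to -0.04. In 7 of the 10 both Step2 libraries lay below both Con libraries, against 18.1% of all windows. None of the 10 was called in limma, where 0.0906% of 25381 windows were, and 3 had an unadjusted p under 0.05, as had 8.25% of all windows. Counted with 1 read per position the 10 were again all lower, with a median of -0.20, and 2 had an unadjusted p under 0.05 in limma. Both Step2 libraries then lay below both Con libraries in 6 of the 10. The windows of one gene share their libraries and are not replicates. These 10 make up most of a gene already called lower on the same reads. An excess of lower windows therefore follows from that call and adds nothing to it. The window with the smallest p, chr14:39300001-39400000, lies in the first intron and held 109 and 119 reads in Con, with 79 and 92 in Step1 and 49 and 53 in Step2 (log2 fold change -0.54 ± 0.23, limma adjusted p = 0.470).

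The 9 windows inside Nrg1 and the 10 inside Erbb4 were mixed in direction. In Step2 against Con 6 of the 9 Nrg1 windows were lower (median -0.17) and 7 of the 10 Erbb4 windows were (median -0.01), and none was called, with 1 Nrg1 window and no Erbb4 window at an unadjusted p under 0.05 in limma. The Nrg1 window with the smallest p was chr8:32300001-32400000, with 85 and 130 reads in Con and 50 and 48 in Step2 (-0.48 ± 0.23, limma adjusted p = 0.570). That of Erbb4 was chr1:68900001-69000000, with 88 and 86 reads in Con and 84 and 52 in Step2, which overlapped (0.22 ± 0.21, limma adjusted p = 0.820).

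Of all windows in Step1 against Con, 0.0158% were called, and none of the 29 inside Nrg1, Nrg3 and Erbb4 was, nor did any pass an unadjusted p under 0.05 in limma with all reads, where 7.27% of all windows did. Counted with 1 read per position, 1 window of Nrg1 (-0.42 ± 0.16, limma adjusted p = 0.481) and 1 of Nrg3 (-0.44 ± 0.16, limma adjusted p = 0.438) did, both lower in Step1, and neither was called. In Nrg3 8 of 10 windows were lower, in Nrg1 7 of 9 and in Erbb4 3 of 10. The smallest p in Nrg3 was at chr14:39200001-39300000 (-0.37 ± 0.20, limma adjusted p = 0.728), in Nrg1 at chr8:32500001-32600000 (-0.34 ± 0.21, limma adjusted p = 0.774) and in Erbb4 at chr1:68100001-68200000 (-0.25 ± 0.20, limma adjusted p = 0.834). In Step2 against Step1, where 0.0433% of all windows were called, none of the 29 was, and 1 window of Nrg1 and 1 of Nrg3 had an unadjusted p under 0.05 in limma, as had 4.29% of all windows. These were chr8:32600001-32700000 (-0.48 ± 0.23) and chr14:38800001-38900000 (-0.48 ± 0.23), and the window of Erbb4 with the smallest p was chr1:68200001-68300000 (-0.42 ± 0.22), each with a limma adjusted p of 0.999. No window of 100 kb lies wholly inside Nrg2 or Nrg4.

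**Figure D5:**
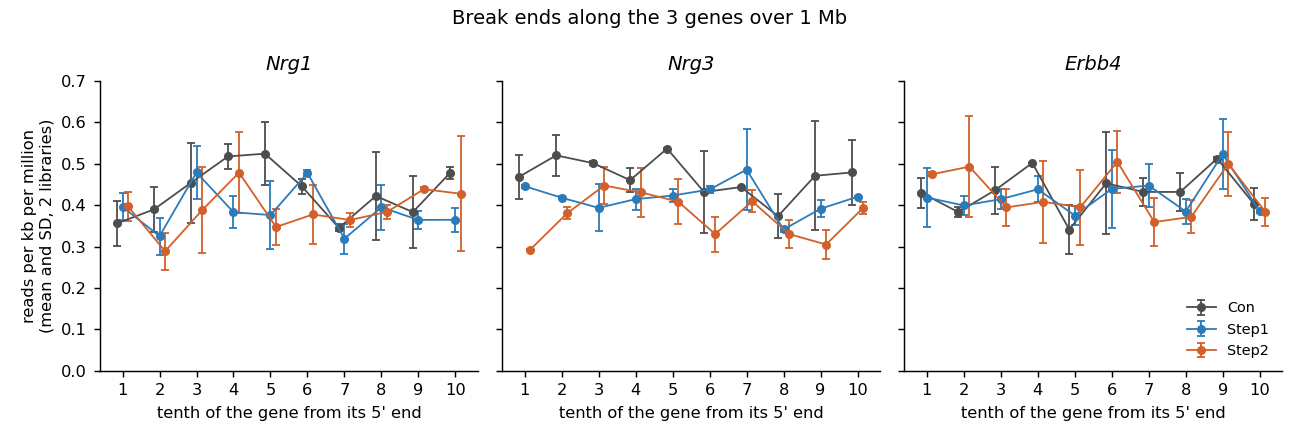
CPM per kb in 10 equal parts of Nrg1, Nrg3 and Erbb4, numbered from the 5′ end of the gene, as means of 2 libraries with SD bars. In Nrg3 the Step2 mean is below the Con mean in each part, with the widest gap in the first (0.293 against 0.469); the lines of Nrg1 and Erbb4 cross.

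Nearly all of these reads lay in introns. In Nrg3, exons take up 0.617% of the gene and held 0.945% of its reads; in Erbb4 these shares were 1.15% and 1.27%, and in Nrg1 0.968% and 0.944%. The first 4 introns of the Nrg3 transcript with 10 exons make up most of the gene. Intron 1 (459.873 kb, 41.6% of the gene) held 492 and 511 reads in Con, against 433 and 371 in Step1 and 265 and 253 in Step2. Its density was lower in Step2 than in Con by a log2 ratio of -0.34, and introns 2, 3 and 4 gave -0.26, -0.43 and -0.28, so all 4 were lower. Intron 1 of Nrg1 (915.33 kb, 85.6% of the gene) gave -0.17. The first introns of Erbb4 gave 0.08 (intron 1, 367.141 kb) and 0.06 (intron 2, 179.699 kb). These ratios are given with no test.

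Reads were also divided at the midpoint of each gene. In Nrg3 the share between the 5′ end and the midpoint was 54.3% and 52.0% in Con, then 51.0% and 49.5% in Step1 and 52.3% and 52.8% in Step2, where Con and Step2 overlapped. In Erbb4 it was 48.5% ± 3.46 in Con and 50.5% ± 0.523 in Step2, and in Nrg1 51.9% ± 1.30 and 48.8% ± 2.43 (SD, n = 2; exact two-sided permutation p = 1 and 0.333). In Nrg4 it was 62.6% and 69.6% in Con, then 59.3% and 47.3% in Step1 and 54.0% and 55.6% in Step2, with both Con libraries above the other 4 (exact two-sided permutation p = 0.333 for each). Counted with 1 read per position it was 55.7% and 59.7% in Con, which overlapped Step1 (57.0% and 45.5%) and lay above Step2 (53.6% and 53.2%). In Nrg2 it was 52.3% and 54.4% in Con, with 59.8% and 53.8% in Step1 and 56.2% and 54.5% in Step2. Nrg1 has several annotated starts far inside the gene. The stretch upstream of all of them (874.538 kb) held 378 ± 25.04 CPM in Con, 345 ± 17.8 in Step1 and 335 ± 25.4 in Step2. The rest of the gene (194.941 kb) held 84.1 ± 7.51, 70.3 ± 3.29 and 81.6 ± 13.6 CPM, so there Step2 was near the Con level.

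Gene starts held few reads. From 1 kb before to 1 kb after the starts at its 5′ end, Nrg3 held 24 reads over the 6 libraries, 0 and 6 in Con, with 6 and 9 in Step1 and 0 and 3 in Step2, a density 2.36 times the genome average. The corresponding regions of Erbb4, Nrg2, Nrg1 and Nrg4 held 12, 13, 11 and 10 reads and densities of 1.16, 1.45, 1.13 and 1.11. Differences between groups at single starts were not tested. In the window of 300 bases around the start that includes the sequence printed above, Nrg3 held 2 reads, both in Con replicate 2, and Erbb4 held 1, also in Con replicate 2, where the median over 32619 such windows of RefSeq starts was 1.

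The Nrg3 sequence stands out by its base composition. Its 300 bases hold 36 CG dinucleotides (the letters CG, which read the same on both strands) and 74.3% G and C, and 6.28% of the 32619 windows hold at least as many CG. That of Erbb4 holds 17 CG and 55.3% G and C, against a median of 7 CG. That of Nrg4 lies around a start inside the gene, at chr9:55283625, and holds 13 CG and 51% G and C. Over the whole gene the order is different, with 37.4% G and C in Nrg3, 36.0% in Erbb4, 39.4% in Nrg1, 42.02% in Nrg4 and 48.0% in Nrg2.

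Break ends in the 5 genes were scattered over single positions. The 5396 reads of Nrg3 lay at 4432 distinct positions and strands, of which 46 (1.04%) were seen in 2 or more libraries and none in all 6. Erbb4 had 4271 positions and Nrg1 4066, with 46 and 42 seen in 2 or more libraries. The position with the most reads in Erbb4, chr1:68261963, had 26 reads, all in Con replicate 1; it is the first capital of the Erbb4 stretch printed above. That of Nrg3, chr14:39290727, had 16 reads, all in Con replicate 2, and that of Nrg4, chr9:55278637, had 17, also all in Con replicate 2. In Nrg1 the top position, chr8:32353795, had 18 reads, 4 and 14 of them in the Con libraries, and in Nrg2, chr18:36177333, it had 9, all in Con replicate 2. Each of these top positions thus drew its reads from Con libraries alone, as did the second position of each gene. Repeated positions were not confined to Con, however. The third position held 16 and 1 reads in the Step2 libraries in Nrg1, 10 and 1 there in Nrg3, and 6 in Step1 replicate 2 in Nrg2. In Nrg4 and Erbb4 the third was again in Con.

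These positions carried little of each long gene's total. The top position held 0.297% of the reads of Nrg3, 0.491% of those of Erbb4 and 0.362% of those of Nrg1, but 3.31% of those of Nrg4. Reads at positions holding at least 2 reads of the same library made up 26.9% and 43.7% of Nrg3 reads in Con, against 16.0% and 21.6% in Step1 and 23.99% and 26.4% in Step2. In Erbb4 they made up 35.6% and 37.1% in Con, then 23.0% and 23.3% in Step1 and 28.4% and 31.7% in Step2. Repeated positions were thus highest in Con for Nrg3 as well as for Erbb4, and in Nrg3 they were uneven between the 2 Con libraries. The part of repeated positions in the group differences of these genes was not tested.

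Other genes of the pathway, in lists written from its known biology, gave 1 call, in Dlg2. Of 13 other ErbB receptor and EGF-family ligand genes, 13 were tested and none was called in any comparison in limma, with none at an unadjusted p under 0.05 with all reads. Of these, 10 were tested with 1 read per position and none was called, but Tmeff2 passed an unadjusted p under 0.05 in limma in Step2 against Con (-0.31 ± 0.12, limma adjusted p = 0.400). With all reads the median log2 fold change of the 13 was -0.06 in Step1 and 0.18 in Step2 against Con, against -0.04 for all genes in both. With 1 read per position the medians of the 10 tested were -0.01 and 0.07, against -0.06 and -0.05 for all genes. Counts in this list were low in part, down to 42 reads of a gene over the 6 libraries. Egfr, the receptor of EGF, had 0.18 ± 0.19 in Step2 against Con, and the genes of the transmembrane proteins with EGF-like domains Tmeff2 and Tmeff1 had -0.26 ± 0.13 and -0.31 ± 0.24 (limma adjusted p = 0.859, 0.652 and 0.796).

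Of 12 genes whose products take part in neuregulin processing, 10 were tested (Aph1a and Psenen had too few reads). None was called in limma in any comparison. At an unadjusted p under 0.05 in limma, 0, 1 and 2 passed in Step1 against Con, Step2 against Con and Step2 against Step1. Of all genes 7.08%, 7.77% and 3.42% passed. With 1 read per position 0, 0 and 2 of the processing genes did. The median of the 10 processing genes was 0.09 in Step1 and 0.16 in Step2 against Con. With 1 read per position it was -0.01 and 0.17, so its sign in Step1 turned. Adam10, a sheddase, had 0.37 ± 0.19 in Step2 against Con (limma adjusted p = 0.659), and the proteases Bace2 and Adam19 had 0.13 ± 0.22 and 0.19 ± 0.23. Of 34 signalling and postsynaptic partners, 32 were tested (not Pik3r2 and Mapk3), and their medians were -0.09 and -0.12. In Step1 against Con 1 of the 32 was called in limma, against 0.123% of all genes and 5 of the 59 over 1000 kb. At an unadjusted p under 0.05 in limma 2, 3 and 0 of the 32 passed in the 3 comparisons, in the order above. With 1 read per position 5, 5 and 0 did. Dlg2, which codes for the postsynaptic scaffold PSD-93 and spans 1972.58 kb, was called lower in Step1 against Con (-0.15 ± 0.03, limma adjusted p = 0.0245) and had -0.17 ± 0.04 in Step2 against Con (limma adjusted p = 0.0534). Wwox, whose product binds the cut intracellular part of ErbB4, had 0.06 ± 0.06 and -0.03 ± 0.07 in the same comparisons, neither called.

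Over the 6 libraries, the genes most like each of the 5 in log2 CPM were taken from 134 or 135 genes with a mean of at least 500 reads per library. The 3 closest to Nrg3 were Dmd, Csmd3 and Tenm4 (Pearson r = 0.964, 0.961 and 0.961), and the 3 closest to Nrg1 were Dab1, Csmd1 and Pcdh9 (r = 0.975, 0.966 and 0.961). Those closest to Erbb4 were Lama2, Sntg1 and Agbl1 (r = 0.926, 0.822 and 0.801), to Nrg2 Lingo2, Fhit and Ralyl (r = 0.936, 0.932 and 0.923) and to Nrg4 Mgat4c, Zfhx3 and Nkain3 (r = 0.859, 0.830 and 0.751). The 6 points share their library sizes, and the values describe these libraries only. A gene picked for its likeness to Nrg3 over these libraries largely shares its direction by that choice. Its fold change therefore adds nothing to that of Nrg3. Of the 3 genes closest to Nrg3, Csmd3 had a log2 fold change of -0.27 ± 0.06 and Dmd one of -0.15 ± 0.04 in Step2 against Con (limma adjusted p = 0.0704 for each), and Tenm4 had -0.23 ± 0.08 (limma adjusted p = 0.476). With 1 read per position Csmd3 (-0.23 ± 0.05, limma adjusted p = 0.00582) and Dmd (-0.13 ± 0.03, limma adjusted p = 0.0231) were called lower in that comparison, and Tenm4 was not (-0.24 ± 0.07, limma adjusted p = 0.206).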

How the data were processed

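The deposited files list aligned reads, 1 to a line, by interval, strand and a score, the aligner's mapping quality, which ran from 11 to 42. Per the series' design text in the labels, the authors removed PCR duplicates by molecular identifier before alignment to mm10 with Bowtie2 and conversion with SAMtools and bedtools, whose versions these sources do not give. The files hold no identifiers, so that step was not checked.

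Reads were counted at their 5′ end in GENCODE annotated gene bodies and in windows of 100 kb on chromosomes 1 to 19 and X. Library size was all reads there outside 26 windows of 10 kb holding over 20 times the median nonzero window (45 reads). A feature needed 10 or more reads in 2 or more libraries to enter the fit by limma 3.58.1 (voom, 3 group means over 6 libraries, two-sided) in R 4.3.3, with Benjamini-Hochberg adjustment over all features and a threshold of 0.05. For single values the test was an exact two-sided permutation of libraries. Python 3.11.15, numpy 2.4.6, pandas 2.3.3, SciPy 1.17.1 and matplotlib 3.10.9 did the rest. The fit was also run on simulated counts. The changes planted there were larger than that of Nrg3, so that run says nothing on changes of its size.

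The 5 genes and the pathway lists were chosen with earlier results of these data known. Named are the 5 genes, of each list the called genes and the 3 with the most reads, the 3 genes most like each of the 5, per gene the window with the smallest p in each comparison, and the position with the most reads. A gene that this rule takes is not reported here. Alternatives changed scaling, filter, test, mapping quality, repeated positions, GC content, piled-up windows, overlapping genes, sequencing run, replicate block, groups fitted and libraries. Deviations of same-numbered replicates were hardly correlated (r = 0.0278, 0.00567 and 0.0244 over 3855 genes). Counting noise in single libraries lowers such an r, so pairing was not excluded.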

Additional observations from a re-analysis of the deposited data

How the results depend on the processing

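Over 22 alternative settings Nrg3 stayed lower in Step2 than in Con, at -0.41 to -0.24 on the log2 scale, and was called in 13; Nrg1 stayed lower in Step1 and in Step2 than in Con in all 22 and was called in none. Besides the settings given in the report (other scalings, single libraries left out, single sequencing runs), the Nrg3 call was lost with no filter on low counts (-0.33, limma adjusted p = 0.0602) and with the 2 groups fitted alone (-0.33, limma adjusted p = 0.0670), and the number of the 5 genes called in Step2 against Con was then 0, as with the median of ratios (-0.28), the trimmed mean of M values (-0.29), run 1 (-0.33) and run 2 (-0.32). A run holds fewer reads and the 2-group fit fewer libraries; otherwise the cause was not tested. Deviations of same-numbered libraries were hardly correlated, but counting noise lowers such a correlation, so it cannot tell whether these libraries were paired. In each group replicate 2 held the larger share of first-run reads (48.7% against 43.3% in Con, 45.9% against 40.4% in Step1, 49.9% against 43.0% in Step2). With the number as a replicate block, Nrg3 in Step2 against Con was -0.33 (limma adjusted p = 0.000261). Genes called were then 38, 43 and 11 in Step1 against Con, Step2 against Con and Step2 against Step1, in place of 17, 13 and 6. In Step1 against Con the number of genes called was 32 with a mapping quality of 42 only, 9 with the median of ratios, 8 with the trimmed mean, 10 with no filter, 10 with at least 20 reads in all 6 libraries, 6 with 2 groups, 4 in run 1 and 35 without piled-up windows. In Step2 against Con it was 24 with a quality of 42, 5 with the trimmed mean, 5 with no filter, 23 with at least 20 reads, 33 with limma-trend, 7 with 2 groups, 3 in run 1 and 31 without piled-up windows. In Step2 against Step1 it was 2 with a quality of at least 30 or of 42, 3 with no filter, 10 with limma-trend, 3 with the GC smooth removed and 1 without piled-up windows. Which genes these were was not compared, and the cause was not tested.

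Signs turned in Nrg1, Nrg2, Nrg4 and Erbb4, in no case with a call. In Step1 against Con Nrg4 was 0.018 in run 1, and Erbb4 was 0.011 with the median of ratios, 0.012 with the trimmed mean and 0.029 in run 2. In Step2 against Con Nrg4 was -0.086 without overlapping genes, and Erbb4 was 0.00083 with a quality of 42, 0.035 with the median of ratios, 0.026 with the trimmed mean and 0.016 with the GC smooth removed. In Step2 against Step1 Nrg1 was -0.0049 with a quality of at least 30, -0.00067 with no filter, -0.00049 with the replicate block, -0.015 in run 1 and -0.00024 without piled-up windows, and Erbb4 was -0.0037 with 1 read per position, -0.00096 with a quality of at least 30 and -0.044 in run 2.

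Leaving out each library in turn, which takes a lone library to vary as much as libraries of other groups do, gave these ranges. In Step1 against Con they were -0.17 to 0.013 for Nrg2, -0.25 to -0.087 for Nrg3, -0.28 to 0.034 for Nrg4 and -0.098 to 0.029 for Erbb4, with 2 to 148 genes and 0 to 1 of the 5 called; 148 was without Con replicate 1. In Step2 against Con they were -0.41 to -0.24 for Nrg3, -0.081 to 0.15 for Nrg4 and -0.053 to 0.027 for Erbb4, with 1 to 106 genes and 0 to 1 of the 5 called; 106 was without Con replicate 1. In Step2 against Step1 they were -0.031 to 0.040 for Nrg1 and -0.043 to 0.084 for Erbb4, with 2 to 8 genes called. Depth limits the 2 short genes most, with at most 102 reads of Nrg4 and 182 of Nrg2 in a library.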

Other observations

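The strand of the reads was counted in the 3 genes over 1000 kb. In Nrg3 the plus strand held 50.2% and 54.6% of reads in Con, with 48.4% and 54.0% in Step1 and 48.0% and 42.2% in Step2, with both Step2 libraries below the other 4 (exact two-sided permutation p = 0.333 against Con, n = 2 libraries each). In Nrg1 it held 52.9% and 57.9% in Con, with 51.5% and 50.4% in Step1 and 48.9% and 49.5% in Step2, so Con lay above the other 4 (exact permutation p = 0.333 against Step2). In Erbb4 it held 49.7% ± 1.33 in Con and 50.4% ± 3.31 in Step2 (SD, n = 2).

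Repeat-masked bases make up 28.4% of Nrg3, 31.6% of Erbb4 and 27.2% of Nrg1. They held 21.4% to 28.0% of the reads of Nrg3 per library, 23.9% to 28.7% of those of Erbb4 and 18.96% to 23.1% of those of Nrg1, below the share of bases in each library. In Nrg3 the groups overlapped in this share (23.4% ± 2.74 in Con and 25.8% ± 3.18 in Step2, SD, n = 2). In Erbb4 it was 23.9% and 24.3% in Con, with 25.9% and 28.7% in Step1 and 26.1% and 28.4% in Step2, so both Con libraries lay below the other 4 (exact permutation p = 0.333 against Step2).

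The 5 genes together held 1538 and 1604 CPM in Con, 1457 and 1442 CPM in Step1, and 1386 and 1409 CPM in Step2. Most reads of this sum come from Nrg1, Nrg3 and Erbb4, and the groups did not overlap. Between Con and Step2 the mean differed most in Nrg3 (518 and 412 CPM) and little in Erbb4 (465 and 461 CPM).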
